A study of Homo sapiens with 8 samples.

Results

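Transcript levels of 5 genes, ASB9, TUBB1, SAMD11, OPN3 and SGK1, were followed across 8 libraries of HepG2 cells, an established human hepatocellular carcinoma line used as a stand-in for hepatocytes. The 5 genes were picked from the measured values themselves, for a large fall in all 3 genistein libraries against the vehicle libraries, and they are 5 of the 20897 genes listed. Their genistein against DMSO values are therefore given as a description with no test. The cells received vehicle (DMSO, 3 libraries), genistein (3 libraries), an isoflavone of soy that binds oestrogen receptors and inhibits tyrosine kinases, or BMP6 at 50 ng/ml (2 libraries), a bone morphogenetic protein that hepatocytes sense through receptors acting on SMAD proteins. Treatment lasted 18 h in medium with 1% serum, and all wells of all 3 groups contained 1% DMSO. The genistein dose is uncertain, since the labels give it as 10 micromolar in one place and with the same figure in millimolar in another. Libraries of a group are described as biological replicates. The study as a whole concerned hepcidin, the hepatocyte hormone of iron balance.

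The 5 genes have no shared textbook pathway. ASB9 encodes an ankyrin repeat and SOCS box protein, a substrate receptor of cullin-RING ubiquitin ligases that is known for binding creatine kinase. TUBB1 encodes the beta tubulin of megakaryocytes and platelets, where it builds the marginal band of microtubules. SAMD11 encodes a sterile alpha motif protein, a kind of domain also found in Polycomb repressor proteins. OPN3 encodes encephalopsin, a non-visual member of the opsin family of G protein-coupled receptors. SGK1 encodes the serum- and glucocorticoid-regulated kinase, which is known for transcription that responds quickly to serum, corticosteroids and cell stress, and for promoting epithelial sodium transport by phosphorylating the ubiquitin ligase NEDD4L. In hepatocytes the kinase acts downstream of phosphoinositide signalling, beside the related AKT kinases.

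The start regions of the 5 genes differ in composition. All 5 were matched by symbol to RefSeq promoter windows (GRCh38.p14), of which the 250 bases before the annotated start are used. Windows are printed for ASB9 and TUBB1, whose levels followed each other most closely across the libraries, for OPN3, which was also low after BMP6, and for the start of SGK1 with the highest GC content, each 5′ to 3′ on the gene's strand with matches to the searched motifs in capitals.
ASB9, chrX:15270468-15270717, minus strand: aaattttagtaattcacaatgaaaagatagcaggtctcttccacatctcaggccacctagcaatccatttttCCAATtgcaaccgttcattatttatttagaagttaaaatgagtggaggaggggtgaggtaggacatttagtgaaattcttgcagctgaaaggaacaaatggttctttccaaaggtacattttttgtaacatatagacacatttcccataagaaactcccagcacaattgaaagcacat
TUBB1, chr20:59019179-59019428, plus strand: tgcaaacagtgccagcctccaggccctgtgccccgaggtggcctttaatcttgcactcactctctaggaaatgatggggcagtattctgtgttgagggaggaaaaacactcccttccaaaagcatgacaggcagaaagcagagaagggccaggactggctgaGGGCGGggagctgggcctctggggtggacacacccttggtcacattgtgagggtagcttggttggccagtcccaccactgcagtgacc
OPN3, chr1:241640370-241640619, minus strand: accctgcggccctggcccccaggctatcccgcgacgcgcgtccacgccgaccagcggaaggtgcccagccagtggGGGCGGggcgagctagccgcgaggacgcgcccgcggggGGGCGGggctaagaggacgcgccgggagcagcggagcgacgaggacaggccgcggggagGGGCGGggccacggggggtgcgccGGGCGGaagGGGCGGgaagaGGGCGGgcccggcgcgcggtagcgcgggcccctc
SGK1, chr6:134174867-134175116, minus strand: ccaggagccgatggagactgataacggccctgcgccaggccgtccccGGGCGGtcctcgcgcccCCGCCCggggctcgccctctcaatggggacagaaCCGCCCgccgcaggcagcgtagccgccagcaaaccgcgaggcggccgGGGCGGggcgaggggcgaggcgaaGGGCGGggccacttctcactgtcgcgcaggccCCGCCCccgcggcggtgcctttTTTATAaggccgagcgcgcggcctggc
The motifs searched on both strands were the TATA box (TATAAA), the GC box (GGGCGG), the CCAAT box (CCAAT), the E-box (CACGTG), a corticosteroid receptor motif (AGAACA), an AP-1 site (TGANTCA) and a SMAD site (GTCTAGAC). None of these contains another, and neighbouring matches in the printed windows do not overlap. The ASB9 window holds 1 CCAAT box, which begins 178 bases before the start, and the TUBB1 window holds 1 GC box. The OPN3 window holds 6 GC boxes, between 34 and 175 bases before the start. The printed SGK1 window holds 6 GC boxes and a TATA box that begins 27 bases before the start, written TTTATA on this strand. Of all 35116 windows of this length, 42.6% hold a GC box, 32.0% a CCAAT box and 10.7% a TATA box.
GC content was 36.4% in the ASB9 window, 57.6% in that of TUBB1, 75.6% in that of SAMD11 and 81.6% in that of OPN3, against a median of 58% over all windows. SGK1 has 3 annotated starts, with 33.6%, 41.6% and 76% GC. Each of their windows holds 1 match to the TATA motif, which begins 96, 15 and 27 bases before the start, in that order. The SAMD11 window holds none of the motifs. No corticosteroid receptor motif, AP-1 site, E-box or SMAD site was found in any of these 7 windows. Such matches occur in 12.4%, 6.57%, 6.34% and 0.182% of all windows. AGAACA is only part of a full receptor site, and bases farther from the starts were not searched. The absence of matches thus says nothing of sites elsewhere. A match is only a match of letters, and which start of SGK1 gave the measured transcripts was not examined.

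The values are FPKM, a fragment level per transcript length and per library total, so levels can be set side by side between genes, but the depth of the libraries is unknown and no counting interval was computed here. The files give the authors' own interval around each value. An exact 0 in such files can be a failed estimate, and a gene is therefore called listed at 0. A pair of libraries stood apart: genistein 2 had 2167 of the 12661 tested genes at 0 and DMSO 1 had 1679, against 356 to 962 in the others. Of the 5396 genes at 35 FPKM or more in all 3 DMSO libraries, 61 were listed at 0 in genistein 2, 4 in genistein 1 and 5 in genistein 3. Of the 40 values of the 5 genes, 2 carry a FAIL status in the files. In bulk RNA, fewer cells with a transcript and less transcript per cell cannot be told apart.

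ASB9 (ENSG00000102048; hg18, chromosome X, 15172030 to 15198104) stood at 37.6, 35.5 and 35.7 FPKM in DMSO 1, 2 and 3, was listed at 0 in genistein 1, 2 and 3, and stood at 12.7 and 24.5 FPKM in BMP6 1 and 2. The 3 groups did not overlap. Group levels were 36.3 ± 1.21 FPKM in DMSO (mean ± SD, n = 3) and 18.6 ± 8.34 after BMP6 (n = 2). No fold is given for genistein, whose libraries are all listed at 0. On the log2(FPKM + 1) scale the genistein against DMSO difference was -5.22 ± 0.39 (SE), the tenth largest fall of the tested genes, a value that the pseudocount sets in part (-8.51 with 0.1 and -3.04 with 5).

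TUBB1 (ENSG00000101162; hg18, chromosome 20, 57027704 to 57035104) stood at 44.9, 65.7 and 57.7 FPKM in DMSO 1, 2 and 3. It stood at 1.18 FPKM in genistein 1, was listed at 0 in genistein 2 and 3, and reached 29.6 and 42.4 FPKM in BMP6 1 and 2. The genistein libraries lay far below the others, and both BMP6 libraries lay under the lowest DMSO library. Group levels were 56.1 ± 10.5 FPKM in DMSO, 0.393 ± 0.68 after genistein (n = 3) and 36.0 ± 9.04 after BMP6 (n = 2). The genistein against DMSO difference was -5.44 ± 0.44 on the log2(FPKM + 1) scale (-7.89 with a pseudocount of 0.1 and -3.49 with 5).

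SAMD11 (ENSG00000187634; hg18, chromosome 1, 850393 to 869824) had the widest spread of the 5 genes within DMSO. It stood at 114, 89.8 and 57.7 FPKM in DMSO 1, 2 and 3, at 5.57, 0.209 and 2.77e-07 in genistein 1, 2 and 3, and at 12.2 and 70.3 in BMP6 1 and 2. The value of genistein 2 has a FAIL status and lies above its own deposited interval of 0 to 0.0361 FPKM. The genistein libraries lay below all others, whereas BMP6 2 lay among the DMSO libraries and BMP6 1 well below them. Group levels were 87.1 ± 28.1 FPKM in DMSO, 1.93 ± 3.16 after genistein and 41.2 ± 41.1 after BMP6. The genistein against DMSO difference was -5.41 ± 0.86 on the log2(FPKM + 1) scale (-7.23 with a pseudocount of 0.1 and -3.77 with 5), and -6.27 without genistein 1.

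OPN3 (ENSG00000054277; hg18, chromosome 1, 239823075 to 239870324) was low after both treatments. It stood at 80.8, 105.6 and 65.6 FPKM in DMSO 1, 2 and 3, at 2.84 and 1.604 in genistein 1 and 3 with genistein 2 listed at 0, and at 1.06 and 7.81 in BMP6 1 and 2. The value of DMSO 3 has a FAIL status, with a deposited interval of 0 to 92.3 FPKM. The treated libraries overlapped each other and none came near the DMSO libraries. Group levels were 84.0 ± 20.2 FPKM in DMSO, 1.48 ± 1.42 after genistein and 4.44 ± 4.77 after BMP6, so the DMSO mean was 56.7 times the genistein mean and 18.9 times the BMP6 mean. The genistein against DMSO difference was -5.28 ± 0.69 on the log2(FPKM + 1) scale (-6.70 with a pseudocount of 0.1 and -3.78 with 5).

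SGK1 (ENSG00000118515; hg18, chromosome 6, 134532083 to 134680291) kept a measurable level in more genistein libraries than ASB9 or TUBB1. It stood at 109, 109.6 and 119 FPKM in DMSO 1, 2 and 3, at 11.3 and 10.3 in genistein 1 and 3 with genistein 2 listed at 0, and at 222 and 101 in BMP6 1 and 2. BMP6 1 was the highest library and BMP6 2 lay just under DMSO. Group levels were 112 ± 5.55 FPKM in DMSO, 7.18 ± 6.24 after genistein and 162 ± 85.7 after BMP6, and the DMSO mean was 15.6 times the genistein mean. The genistein against DMSO difference was -4.45 ± 0.90 on the log2(FPKM + 1) scale (-5.62 with a pseudocount of 0.1 and -3.45 with 5) and -3.27 without genistein 2. Among genes above 0 in the same library, SGK1 stood at the 74.0 to 75.5 percentile in DMSO, at 22.6 and 21.9 in genistein 1 and 3, and at 90.2 and 67.6 in BMP6 1 and 2.

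**Figure D1:**
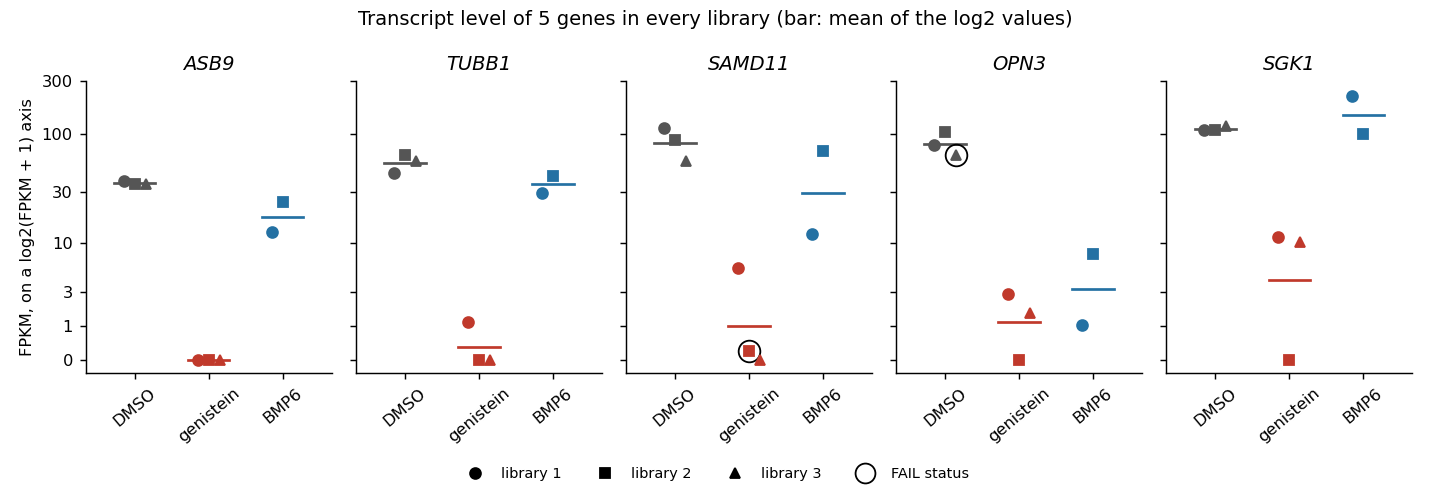
FPKM of the 5 genes in each library on a log2(FPKM + 1) axis, with groups on the horizontal axis, symbols for library numbers, short bars for the mean of the log2 values and open circles around values with a FAIL status. The genistein libraries lie below all DMSO libraries for every gene, by choice of the genes, whereas BMP6 libraries lie near DMSO for TUBB1 and SGK1 and near genistein for OPN3.

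The order of the group levels was DMSO, BMP6, genistein for ASB9, TUBB1, SAMD11 and OPN3, and BMP6, DMSO, genistein for SGK1. Neighbours in that order that overlapped between libraries were DMSO and BMP6 for SAMD11 and SGK1, and BMP6 and genistein for OPN3. All 5 genes lay lower in the 3 genistein libraries than in any DMSO library. The choice of the genes fixes this, and 20.6% of tested genes showed the same. In that comparison, limma with Benjamini-Hochberg adjustment over 12661 genes called 6.11% of them higher and 5.96% lower at a threshold of 0.05. Among all falls by size the 5 genes ranked 5 (TUBB1), 7 (SAMD11), 9 (OPN3), 10 (ASB9) and 32 (SGK1). Without DMSO 1 and genistein 2 together the differences were -5.19 for ASB9, -5.41 for TUBB1, -4.83 for SAMD11, -4.74 for OPN3 and -3.29 for SGK1.

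The BMP6 libraries took no part in choosing the genes, but BMP6 against DMSO uses the same DMSO libraries as the choice did. OPN3 had a log2 difference of -4.29 ± 0.77 (SE; 95% interval -6.05 to -2.53), with an adjusted p of 0.0531 in limma's test, just outside the threshold. Of 20 alternative settings, 15 left it outside the threshold, with adjusted p up to 0.241 (without DMSO 2). It was past the threshold in the other 5, without genistein 2 (adjusted p = 0.0422), without BMP6 2 (0.0188), with median-of-ratios scaling (0.028), with quantile normalization (0.0115) and with a pseudocount of 5 (0.0116). With single libraries left out the difference ranged from -5.34 (without BMP6 2) to -3.24 (without BMP6 1). ASB9 differed by -0.995 ± 0.44 (interval -1.997 to 0.0072, adjusted p = 0.266) and TUBB1 by -0.63 ± 0.50 (interval -1.77 to 0.51, adjusted p = 0.505). SAMD11 differed by -1.47 ± 0.96 (adjusted p = 0.429), and by -2.69 without BMP6 2 against -0.25 without BMP6 1. SGK1 differed by 0.42 ± 1.01 (interval -1.89 to 2.73, adjusted p = 0.847), so neither a fall nor a rise of several fold lies outside its interval, and without BMP6 1 the sign was negative (-0.15).
In this comparison 0 of the 5 genes passed limma's threshold, against 0.34% of all tested genes called higher and 0.498% called lower, and 1 of the 5 (OPN3) had an unadjusted p below 0.05 against 18.9% of all tested genes. With pseudocounts, filters, scalings and libraries varied, the count was 0 or 1. ASB9, TUBB1 and OPN3 were lower in both BMP6 libraries than in every DMSO library, 3 of 5 genes against 17.3% of all tested genes. A choice by falls from DMSO favours genes with high values in these DMSO libraries, so nothing is read from these counts against the shares.

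Genistein against BMP6 uses the genistein libraries on which the genes were chosen, so a fall there is in part fixed in advance. ASB9 passed the threshold in the direction of lower genistein values (log2 difference -4.22 ± 0.44, limma adjusted p = 0.00541), with all 3 genistein libraries under both BMP6 libraries. For TUBB1 the log2 difference was -4.81 ± 0.50 (limma adjusted p = 0.00541), again with no overlap. Both calls were lost when only the genistein and BMP6 libraries were fitted (adjusted p = 0.0814 for ASB9 and 0.0647 for TUBB1). Fitting the replicate number as a block also lost both. SGK1 differed by -4.87 ± 1.01 (adjusted p = 0.0635) and passed the threshold in 5 of 20 alternative settings, one of them without genistein 2 (-3.68, adjusted p = 0.0285). In the other 15 the adjusted p reached 0.384, and with single libraries left out the difference ranged from -5.49 (without genistein 1) to -3.68 and the adjusted p reached 0.162 (without BMP6 1). SAMD11 differed by -3.94 ± 0.96 (adjusted p = 0.104). OPN3 differed by -0.98 ± 0.77 (interval -2.75 to 0.78, adjusted p = 0.62), and by 0.064 without BMP6 2.
Thus 2 of the 5 genes passed, both lower after genistein, and in 4 of the 5, all but OPN3, no genistein library reached a BMP6 library. Over all tested genes 0.64% were called higher, 0.75% were called lower and 12.6% lay lower without overlap. Since low genistein values chose the genes, nothing is read from their counts against these shares. The median log2 difference over all tested genes was 0.048 after genistein and -0.026 after BMP6, each against DMSO, and 0.12 between the treatments. These group medians do not show the scale of single libraries. Median-of-ratios factors ran from 0.728 (BMP6 1) to 1.24 (genistein 1), with 1.19 in BMP6 2.

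**Figure D2:**
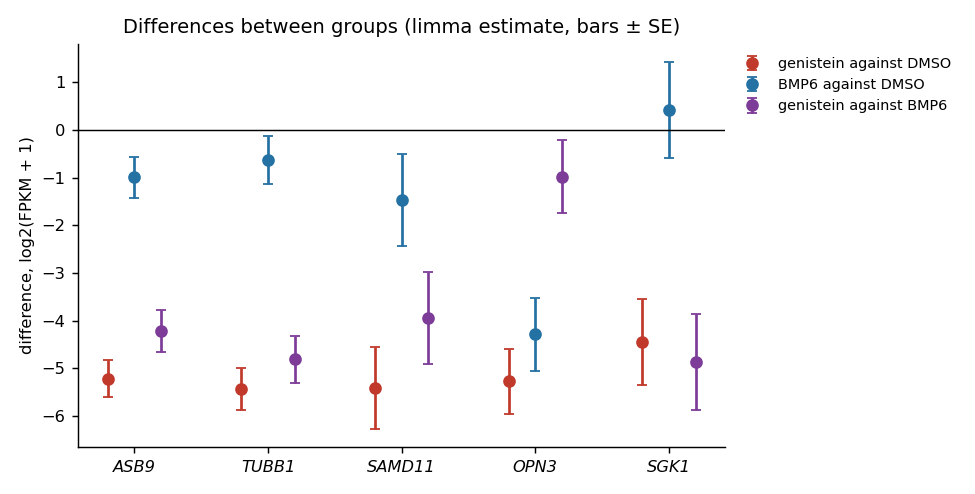
Differences in log2(FPKM + 1) of the 5 genes in the 3 comparisons, as limma estimates with bars of ± 1 SE. OPN3 stands near -4 for BMP6 against DMSO, whereas SGK1 stands near 0 there with a wide bar, and the genistein against DMSO values were the basis of the choice.

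The 5 genes did not share a single pattern across libraries. Likeness was measured as the root mean square difference of log2(FPKM + 1) values centred on each gene's mean over the 8 libraries, where smaller is closer. ASB9 and TUBB1 were the closest pair at 0.439, and OPN3 and SGK1 the farthest at 2.14, whereas the median distance from a member to all 11979 other tested genes with a symbol was between 2.497 and 2.66. These distances share the 8 libraries, include the comparison that chose the genes, and are given as a description.
The closest genes to ASB9 after TUBB1 were RHBDL2, a rhomboid protease of the membrane (0.532), and CLDN14, a tight junction claudin (0.599), both listed at 0 in all 3 genistein libraries. RHBDL2 stood at 17.1, 21.1 and 19.2 FPKM in DMSO and 4.13 and 11.2 in BMP6. The closest to TUBB1 after ASB9 were PNPLA3, a lipid droplet protein (0.692), and ANTXR1, a membrane receptor for anthrax toxin (0.708). PNPLA3 stood at 23.6, 22.0 and 23.4 FPKM in DMSO, 2.53 in genistein 1, 0 in genistein 2 and 3, and 17.2 and 26.0 in BMP6.
The closest to SAMD11 were FITM1, a fat storage protein of the endoplasmic reticulum (0.564), TNNI3, the cardiac troponin I gene (0.783), and FAM111A, a serine protease gene (0.809). All 3 were listed at 0 in genistein 2 and 3 and stood between 4.29 and 5.93 FPKM in genistein 1. The closest to OPN3 were SLC49A3, a predicted transporter gene (0.371), PRRT1 (0.448) and TBX10, a T-box transcription factor gene (0.59). SLC49A3 stood at 45.7, 102 and 51.9 FPKM in DMSO, 4.51, 0 and 1.58 in genistein, and 1.16 and 9.58 in BMP6, a course with the same low level after both treatments as OPN3.
The closest to SGK1 were SPTLC3, a serine palmitoyltransferase subunit (0.285), PDZK1, a scaffold of membrane transporters (0.297), and SERPINA7, thyroxine-binding globulin (0.647). SPTLC3 stood at 135, 111 and 122 FPKM in DMSO, 8.55, 0 and 10.8 in genistein, and 169 and 66.2 in BMP6. SERPINA7 stood at 52.5 and 44.8 FPKM in genistein 1 and 3. All 3, like SGK1, were listed at 0 in genistein 2 alone, the library with the most tested genes at 0, so their likeness to SGK1 rests in part on that library.

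**Figure D3:**
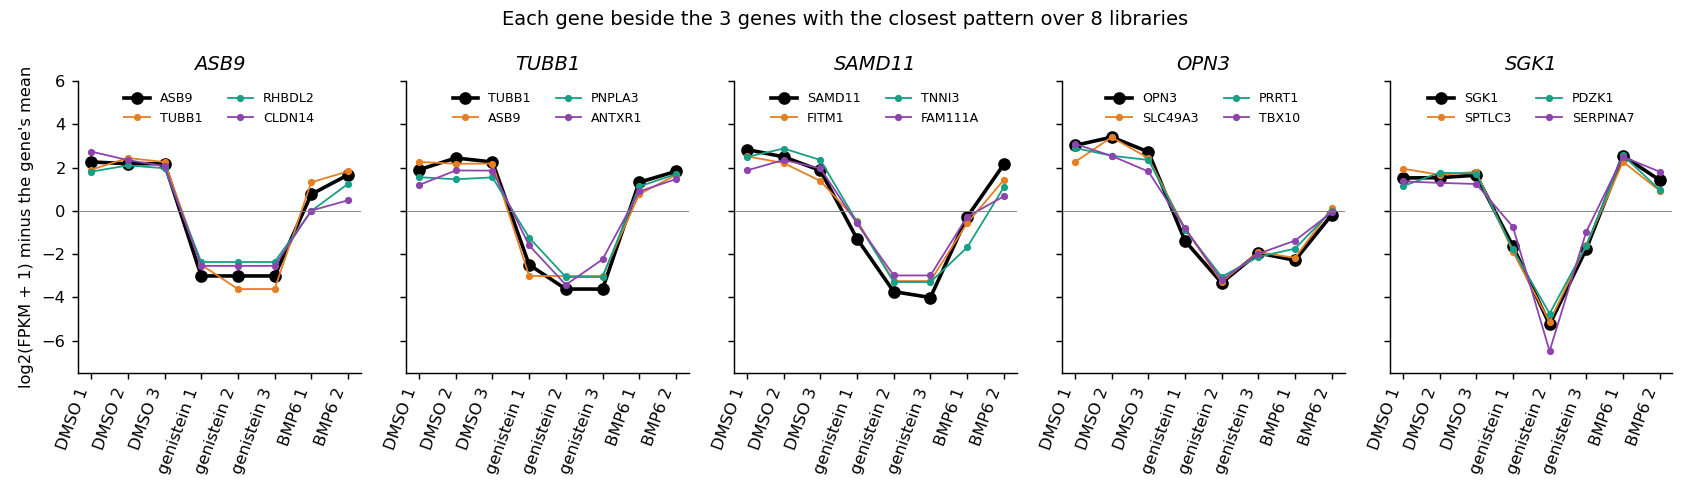
Centred log2(FPKM + 1) values of each of the 5 genes (black) and the 3 genes with the smallest root mean square distance to it (colours), by library. The ASB9 and TUBB1 panels show low genistein values, with BMP6 between DMSO and genistein for ASB9 and TUBB1 and close to DMSO for PNPLA3. The OPN3 panel shows both treatments low, and the SGK1 panel shows a dip in genistein 2 below genistein 1 and 3.

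Of the 5 genes, 3 overlap other genes in the files' coordinates, and strandedness of the libraries is not stated in the labels, so reads of overlapping parts could be shared. OPN3 overlaps the end of KMO, the kynurenine hydroxylase gene, on the opposite strand by 2492 bases, and contains the whole of CHML, a Rab escort protein gene, on the same strand. KMO stood at 1.64, 0.00682 and 0.581 FPKM in DMSO, 16.2, 0 and 20.8 in genistein, and 77.8 and 15.7 in BMP6. CHML stood at 2.46, 3.75 and 3.14 FPKM in DMSO, 7.96, 0 and 22.2 in genistein, and 25.9 and 16.4 in BMP6. Both neighbours lay higher in BMP6 than in DMSO, where OPN3 lay lower, yet neither passed the threshold (log2 difference 4.49 ± 1.32, adjusted p = 0.148, for KMO and 2.40 ± 1.13, adjusted p = 0.294, for CHML). How the authors' software divided reads between OPN3 and these genes was not tested.
TUBB1 overlaps ATP5F1E, a subunit of ATP synthase, by 682 bases on the opposite strand, and SAMD11 overlaps NOC2L, a nucleolar protein gene, by 366 bases on the opposite strand. ATP5F1E ranged from 678 to 1887 FPKM in the DMSO and genistein libraries, with a genistein against DMSO difference of -0.053 ± 0.73. NOC2L ranged from 153 to 265 FPKM in the same libraries, with a difference of 0.26 ± 0.46. These genes therefore had no low genistein values of the kind seen for TUBB1 and SAMD11.
The nearest genes beyond the overlaps gave no common direction. PRELID3B, which lies 6492 bases from TUBB1, stood at 23.9, 39.1 and 34.7 FPKM in DMSO, 112, 106 and 134 in genistein, and 75.9 and 52.7 in BMP6, and was higher after genistein by 1.84 ± 0.32 (limma adjusted p = 0.0129), a call lost without DMSO 2 or genistein 3 (adjusted p at most 0.0693). FH, the fumarase gene below OPN3, KLHL17 beyond SAMD11, MOSPD2 below ASB9 and SLC2A12 below SGK1 did not pass the threshold in any comparison. ASB11, WDR64, FAM87B and ALDH8A1 were listed at 0 in all libraries, and CTSZ in all but BMP6 2.

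**Figure D4:**
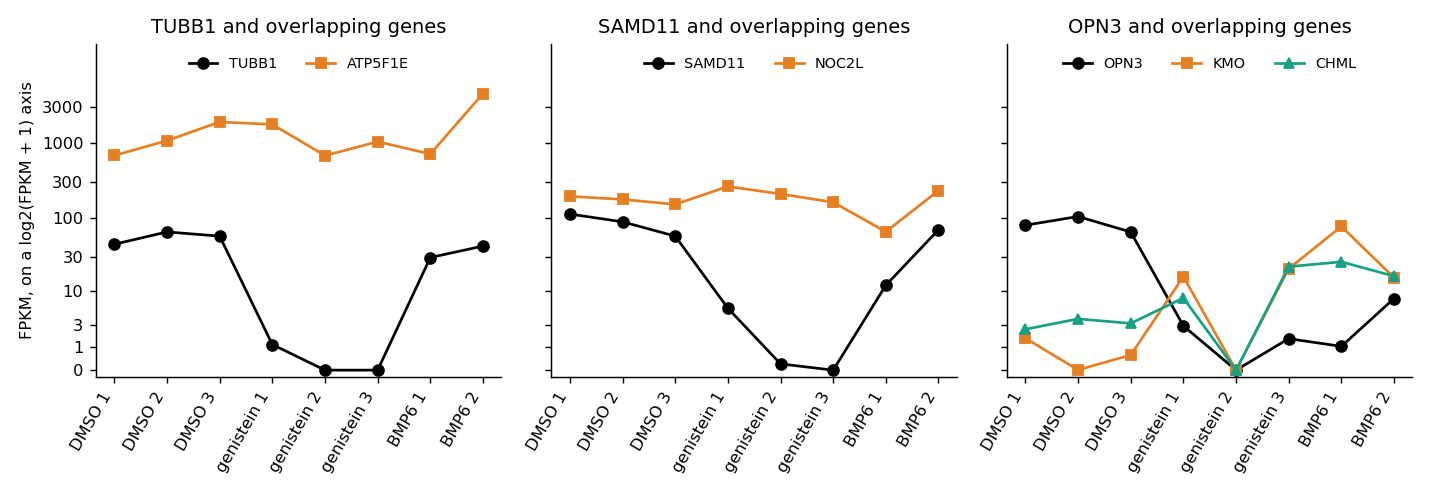
FPKM by library, on a log2(FPKM + 1) axis, of TUBB1, SAMD11 and OPN3 (black) and of the genes whose spans overlap them (colours). ATP5F1E and NOC2L keep their level in the genistein libraries, whereas KMO and CHML lie above OPN3 in genistein 1, genistein 3 and both BMP6 libraries.

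Genes with roles around each member were taken from lists drawn up from general knowledge. None of the 8 tested members of the ASB family other than ASB9 passed the threshold after genistein (median log2 difference -0.26 against 0.048 for all tested genes), beside 6.11% of all tested genes higher and 5.96% lower, and 7 more were listed at 0 throughout. ASB1 and ASB3, the most abundant of them, had differences of 0.73 ± 0.51 and -1.34 ± 0.40 (adjusted p = 0.368 and 0.066). ASB2, named after its values were seen, stood at 0, 0 and 2.00 FPKM in DMSO and 7.34, 4.44 and 3.56 in genistein (2.04 ± 0.58, limma adjusted p = 0.0555). The count in this family was 1 with a pseudocount of 5, no filter, median-of-ratios scaling, quantile normalization or without DMSO 3, and 3 with library weights. Of 9 tested genes of the cullin ligase core and the creatine kinases, 1 rose and 0 fell, beside 6.11% and 5.96% of all tested genes (median 0.50). The riser was ARIH2, a ubiquitin ligase that works with cullin complexes, at 88.0, 98.2 and 91.9 FPKM in DMSO, 438, 544 and 360 in genistein, and 139 and 250 in BMP6 (difference 2.24 ± 0.32, limma adjusted p = 0.00783, and 0.0648 without DMSO 1 and genistein 2 together). CKB, the brain creatine kinase gene and the known partner of ASB9, is named after its values were seen: it stood at 331, 344 and 445 FPKM in DMSO, 142, 145 and 67.5 in genistein, and 513 and 3852 in BMP6, and did not pass the threshold in any comparison (genistein against DMSO -1.72 ± 0.69, adjusted p = 0.14).

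Of the 15 other tubulins tested, 1 rose after genistein and 0 fell, beside 6.11% and 5.96% of all tested genes, with a median difference of 0.29. The count was 4 without either BMP6 library and 6, with 1 of them lower, after quantile normalization. TUBD1, the delta tubulin gene, named after its values were seen, stood at 35.5, 21.2 and 27.9 FPKM in DMSO, 11.8, 0 and 6.24 in genistein, and 15.8 and 26.1 in BMP6. Its genistein libraries lay below all DMSO libraries, as did those of 20.6% of all tested genes. The difference of -2.66 ± 0.86 did not pass the threshold (limma adjusted p = 0.0828). The tubulin that rose was TUBE1, the epsilon tubulin of centrioles, at 18.1, 30.8 and 11.7 FPKM in DMSO, 179, 164 and 243 in genistein, and 14.1 and 24.8 in BMP6. TUBE1 was higher after genistein than in DMSO (3.29 ± 0.42, limma adjusted p = 0.00605) and than after BMP6 (3.30 ± 0.47, limma adjusted p = 0.0197), and the first call held with each library left out in turn. The second was lost without BMP6 1 or any genistein library (adjusted p at most 0.0983). TUBB and TUBB4B, the most abundant by mean over all libraries, are named after their values were seen. TUBB ranged from 1519 to 1990 FPKM in DMSO and from 3644 to 5380 in genistein, and TUBB4B from 2536 to 3130 and from 1072 to 2275, and neither passed the threshold (differences of 1.25 ± 0.45 and -0.84 ± 0.63, adjusted p = 0.107 and 0.406).

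Of 25 tested Polycomb and SAM-domain genes related to SAMD11, 0 rose and 1 fell after genistein, beside 6.11% and 5.96% of all tested genes (median 0.0036). That gene was PCGF5, a subunit of variant Polycomb complexes, at 505, 563 and 375 FPKM in DMSO and 169, 177 and 135 in genistein (-1.57 ± 0.41, limma adjusted p = 0.0449), a call lost when any DMSO or genistein library was left out (adjusted p at most 0.156). The 7 other opsins in the files were listed at 0 in all 8 libraries, and OPN3 was the only one with values above 0.

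Around SGK1, none of 10 tested relatives and upstream kinases passed the threshold after genistein, beside 6.11% of all tested genes higher and 5.96% lower (median 0.11). The count was 2 with median-of-ratios scaling, quantile normalization or only the 2 groups fitted, and 4 with library weights. SGK2 and SGK3, the other kinases of the family, are named after their values were seen. SGK2 stood at 11.7, 21.2 and 12.9 FPKM in DMSO, 18.4, 16.2 and 14.8 in genistein, and 40.7 and 31.3 in BMP6, and SGK3 at 9.72, 16.3 and 10.7, at 19.3, 23.3 and 21.1, and at 15.8 and 12.8. Both were measured in all libraries at levels far under that of SGK1 in DMSO, and in genistein above it. AKT1 and AKT2, the most abundant of the list, had differences of -1.14 ± 0.37 and 0.082 ± 0.48 (adjusted p = 0.0807 and 0.928).
Of 11 tested SGK1 substrates and sodium transport genes, 0 passed after genistein, beside 6.11% of all tested genes higher and 5.96% lower (median -0.49). The count was 3 with median-of-ratios scaling or quantile normalization, 2 with only the 2 groups fitted and 8 with library weights. After BMP6, 1 of the 11, SCNN1A, rose, beside 0.34% of all tested genes. SCNN1A, the alpha subunit of the epithelial sodium channel, was listed at 0, 0 and 2.19 FPKM in DMSO and 1.71, 0 and 1.43 in genistein, and stood at 64.1 and 40.6 in BMP6. The difference was 5.14 ± 0.72 when BMP6 was compared with DMSO (limma adjusted p = 0.026) and -4.80 ± 0.72 when genistein was compared with BMP6 (limma adjusted p = 0.0212). The call against DMSO was lost without DMSO 1, DMSO 2, genistein 1, genistein 3 or BMP6 1 (adjusted p at most 0.149), and that against BMP6 without DMSO 2, BMP6 1 or any genistein library (at most 0.0837).

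The corticosteroid list, added because SGK1 is named for that response, moved in both directions after genistein: of 16 tested genes 3 rose and 2 fell, beside 6.11% and 5.96% of all tested genes (median 0.49). ERRFI1, a feedback inhibitor of the epidermal growth factor receptor, stood at 182, 179 and 212 FPKM in DMSO and 692, 631 and 577 in genistein (1.72 ± 0.27, limma adjusted p = 0.00966). TAT, tyrosine aminotransferase, and IGFBP1, a binding protein of insulin-like growth factors, rose by 1.62 ± 0.37 and 1.72 ± 0.41 (limma adjusted p = 0.0296 and 0.0342). NFKBIA, the inhibitor of NF-kappa B, had a log2 difference of -2.07 ± 0.42 (limma adjusted p = 0.0201), and HSD11B2, which inactivates cortisol, one of -1.98 ± 0.52 (limma adjusted p = 0.0443). The count of 5 depended on single libraries: leaving out DMSO 1, 2 or 3 gave 3, 0 and 1, leaving out genistein 1, 2 or 3 gave 2, 1 and 0, leaving out either BMP6 library gave 8, and leaving out DMSO 1 and genistein 2 together gave 0.
FKBP5 and TSC22D3, which respond to corticosteroids in many cells, are named after their values were seen. FKBP5 stood at 21.1, 36.5 and 36.6 FPKM in DMSO and 63.6, 50.6 and 72.0 in genistein (0.99 ± 0.34, limma adjusted p = 0.0938). TSC22D3 was listed at 0 in all libraries but genistein 1, at 4.33. CEBPD and PCK1 of the same list, also named after their values were seen, went the other way. Their differences were -2.43 ± 0.93 and -1.27 ± 0.46 (limma adjusted p = 0.127 and 0.112). Of the 16 tested genes, 10 differences were positive and 6 negative after genistein. NR3C1, the glucocorticoid receptor gene, also named after its values were seen, stood between 12.5 and 31.2 FPKM in all 8 libraries. None of the 16 tested genes of this list passed the threshold in the other comparisons.

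Markers of the labelled cell type were present throughout. All 12 hepatocyte markers were above 0 in all libraries, with APOA2, an apolipoprotein, the highest by mean, and their summed level ranged from 179175 to 223325 FPKM in DMSO, 134151 to 215539 in genistein and 206050 to 226264 in BMP6. After genistein 1 of the 12 fell and 0 rose, beside 5.96% and 6.11% of all tested genes. The one that fell was TTR, the transthyretin gene (-2.64 ± 0.52, limma adjusted p = 0.0193), a call lost without DMSO 2, DMSO 3 or any genistein library (adjusted p at most 0.0887). APOA1 and FOXA2, named after their values were seen, lay lower in every genistein library than in any DMSO library. TTR did too, as did 20.6% of all tested genes, so nothing is read from this. The differences of APOA1 and FOXA2, -2.85 ± 0.95 and -2.04 ± 0.61, did not pass (limma adjusted p = 0.0895 and 0.0635). Of the 12 differences, 8 were negative and 4 positive (median -0.11). Of the 11 megakaryocyte and platelet markers in the files, relevant to TUBB1, 8 were listed at 0 throughout, among them the defining PF4, PPBP and GP9, and their summed level was 7.89 to 12.9 FPKM in DMSO, 0 to 4.86 in genistein and 2.60 to 9.24 in BMP6. TUBB1 at 44.9 to 65.7 FPKM in DMSO was thus measured where those defining markers are at 0.
Of that list 3 genes were tested and 1, NFE2, a transcription factor gene, passed the threshold after genistein as lower, beside 5.96% of all tested genes. NFE2 stood at 7.89, 9.53 and 10.3 FPKM in DMSO, was listed at 0 in all genistein libraries, and stood at 2.60 and 6.11 in BMP6 (genistein against DMSO -3.35 ± 0.44, limma adjusted p = 0.00611). The other two did not pass: GP1BA was listed at 0 in all libraries but DMSO 2 and 3, at 2.98 and 2.62 FPKM, and ITGA2B in all but genistein 1, genistein 3 and BMP6 2, at 4.86, 1.28 and 3.14. Whether the level of NFE2 has any part in that of TUBB1 was not tested. Of the 12 photoreceptor markers, relevant to OPN3 and SAMD11, 9 were listed at 0 throughout, CRX and RCVRN among them. Their summed level was 0 to 55.6 FPKM in DMSO, 9.06 to 38.7 in genistein and 5.05 to 35.2 in BMP6, with NRL, a transcription factor gene, the highest by mean.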

How the data were processed

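RNA of 8 HepG2 libraries was sequenced on a Genome Analyzer II, per the labels' protocols. Per the file headers, the deposited values are FPKM with an interval and a status per gene. The submitters' processing notes name hg18, Cuffdiff, Cufflinks 1.0.3, Bowtie and TopHat 1.1.0, whose settings are not given in the sources used here. Groups and replicate numbers came from the sample titles. Symbols matched 19069 of 20897 gene IDs. The 5 genes, the gene lists and the tests were chosen with earlier results of these data known.

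Tests covered the 12661 genes that reached 1 FPKM in 2 or more libraries, as log2(FPKM + 1) with no further scaling, in a single limma fit of all 8 libraries with an intensity trend (limma 3.58.1, R 4.3.3; two-sided, Benjamini-Hochberg, threshold 0.05). The fit was also run on simulated normally distributed values with planted falls in BMP6. These values lack the outlying libraries of the data, so that run does not show how reliable the calls here are. A difference on this scale understates the change of low genes. Genes named besides the 5 were the 3 closest in pattern, overlapping and nearest genes, up to 4 genes past the threshold per list or otherwise the 2 most abundant, and the highest marker. Genes said to be named after their values were seen, and GP1BA, ITGA2B, NFE2, NRL, TTR and HSD11B2, fall outside that rule. P-values set a difference against the spread between the deposited libraries of a group, which limma pools over the groups and moderates over genes. Strand came from GENCODE v29 and sequences from RefSeq (GRCh38.p14). Pseudocount, filter, scaling, fitted groups, replicate block, library weights and left-out libraries were varied. Figures were drawn with matplotlib 3.10.9 in Python 3.11.15.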

Additional observations from a re-analysis of the deposited data

How the results depend on the processing

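ASB9, TUBB1, SAMD11 and OPN3 had a negative BMP6 against DMSO difference in all 20 alternatives. A choice by falls from the same DMSO libraries favours that sign. The alternatives also refit the same libraries, so nothing is read from the shared sign. The sign of genistein against DMSO is fixed by the choice of the 5 genes. SGK1 ranged from -0.15 to 0.98 for BMP6 against DMSO and OPN3 from -2.03 to 0.064 for genistein against BMP6 when single libraries were left out. For the other values the cause was not tested. Of the 5 genes, 1 (OPN3) passed for BMP6 against DMSO with a pseudocount of 5, median-of-ratios scaling or quantile normalization (1 each), and 0 to 1 with a library left out. For genistein against BMP6, 4 passed with median-of-ratios scaling (all but OPN3), 0 with only the 2 groups fitted and 0 with the replicate block, and 2 to 3 with a library left out.

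Genes past the threshold for genistein against DMSO (1527) numbered 2395 with quantile normalization, 2690 with only the 2 groups, 414 with the replicate block, 5383 with library weights, whose estimation did not converge, 424 without DMSO 1 and genistein 2, and 229 to 2671 with a library left out. For BMP6 against DMSO (106) they numbered 184 with a pseudocount of 5, 38 with a mean of at least 5 FPKM, 382 with median-of-ratios scaling, 338 with quantile normalization, 17 with only the 2 groups, 4 with the replicate block, 8 with library weights, 164 without DMSO 1 and genistein 2, and 5 to 1999 with a library left out (the highest without BMP6 2). For genistein against BMP6 (176) they numbered 417 with median-of-ratios scaling, 424 with quantile normalization, 37 with only the 2 groups, 7 with the replicate block, 38 with library weights, and 42 to 629 with a library left out. Median-of-ratios scaling moved the median difference of all genes from 0.048 to -0.053 for genistein against DMSO and from 0.12 to -0.040 for genistein against BMP6.

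Deviations of same-numbered libraries from their group means correlated at -0.15, -0.065 and -0.0046 for DMSO with genistein. They correlated at 0.055 and 0.0014 for DMSO with BMP6, and at -0.25 and 0.29 for genistein with BMP6. With 2 or 3 libraries per group, such values cannot show whether the replicate numbers pair the libraries. Why fewer genes passed with the replicate block was not tested. Leaving out DMSO 1 and genistein 2 together, and setting the 332 FAIL values to missing, were chosen after seeing the data. A library left alone in its group was assumed to vary like the other groups. Depth is unknown, so values listed at 0 carry no detection limit.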
